A study of Mus musculus with 9 samples.

Results

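Phagocytes make superoxide with the NADPH oxidase NOX2, an enzyme that passes electrons from NADPH across a membrane to oxygen. Its catalytic chain (encoded by Cybb) and a stabilizing membrane partner (Cyba) form a heme-binding core, which becomes active only when cytosolic subunits, among them the products of Ncf1 and Ncf4, and a Rac GTPase join it. Superoxide dismutases, in the cytosol (Sod1) and in mitochondria (Sod2), turn superoxide into hydrogen peroxide, and catalase (Cat), mostly in peroxisomes, breaks hydrogen peroxide down. Expression of 8 genes of this system, Cybb, Cyba, Ncf1, Ncf4, Rac2, Sod1, Sod2 and Cat, was examined in mouse bone marrow-derived macrophages (BMDMs). The genes were selected by symbol from the 53465 genes of the count table, each stood on 1 row, and all 8 were among the 11950 genes that passed the filter on low counts.

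BMDMs were grown from bone marrow of male wild-type C57BL/6 mice (C57bl6/J in the study's methods) in medium with 50 ng/ml CSF1, the growth factor that drives macrophage differentiation. The age of the mice was not given. UNX cells were left untreated, whereas CO-CM and PH-CM cells received medium conditioned by pulmonary artery adventitial fibroblasts, connective tissue cells of the outer vessel wall, grown from control calves or from calves with hypoxia-induced pulmonary hypertension. Each group had 3 libraries. The labels give 16 h of exposure in the description of the culture and 24 h in that of the treatment, and the study's methods give a time between them. Fibroblast populations of several calves were pooled for each conditioned medium. The 3 libraries of a group therefore repeat the culture, not the calves. The UNX cells did not receive fibroblast medium of any kind, so what both conditioned media share (calf fibroblast products, serum, nutrient use) is part of each comparison with UNX.

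Gene-level read totals were 62017933 to 84314201 in UNX, 68317274 to 73049365 in CO-CM and 63493877 to 66935070 in PH-CM, and the 8 genes held 5653 to 55474 reads per library. Levels are given as CPM, the count scaled to library size after TMM normalization. RPKM, which also divides by exon length, was used where levels of different genes are compared. A gene was called higher or lower when its FDR in edgeR's quasi-likelihood test over all 11950 tested genes was at most 0.05 and its fold change at least 1.2. All 10 macrophage markers examined were detected, with a summed level of 12300 to 13100 CPM in UNX, 19600 to 20600 in CO-CM and 22200 to 24000 in PH-CM. Lyz2 alone had a mean of 7251 CPM in UNX, 12814 in CO-CM and 15204 in PH-CM. By gene, 9 were called higher and 0 lower in PH-CM against UNX (31.3% and 31.7% of all genes). In CO-CM against UNX 6 were called higher and 1 lower (28.0% and 28.9% of all genes). Of the neutrophil markers, 3 of 12 passed the filter, and the summed level of the list was 12.0 to 17.1 CPM in UNX, 70.1 to 87.6 in CO-CM and 47.5 to 65.6 in PH-CM. Most of that sum came from Csf3r and Mmp8. No dendritic cell or lymphocyte marker passed the filter. In the fibroblast list 6 of 8 did, with a summed level of 197 to 249 CPM in UNX, 267 to 318 in CO-CM and 249 to 335 in PH-CM. Whether these markers have a part in the results given here was not tested. In RNA from bulk cultures, fewer cells of a type and less RNA per cell cannot be told apart.

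The genes lie on several chromosomes of GRCm38. Cybb spans X:9435252-9487771 on the minus strand and has 15 exons when those of all its transcripts are merged. Cyba lies at 8:122424776-122432930, Ncf1 at 5:134220053-134229625 and Cat at 2:103453849-103485160, all on the minus strand. Ncf4 at 15:78244801-78262580 (plus strand) and Rac2 at 15:78559167-78572783 (minus strand) share a chromosome. Sod1 lies at 16:90220754-90226329 and Sod2 at 17:13006846-13040063, both on the plus strand. Ncf1 shares 408 exon bases with Gtf2ird2 on the opposite strand. The counting parameters listed by the study hold no strand setting, so reads from that stretch may have gone to either gene or to neither. How many did so was not determined. Over all libraries Gtf2ird2 held 8768 reads and Ncf1 241745. Sod1 overlaps Scaf4 and Cyba overlaps Gm20388 without shared exon bases.

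Promoter sequences are shown first, to set the start region of Cybb, which had the largest change of the 8 genes in both comparisons with CO-CM and the smallest in PH-CM against UNX, beside those of other members of the system. RefSeq promoters (GRCm38.p6) were given for Cybb, Cyba, Ncf1, Sod1, Sod2 and Cat. Below are the last 100 bases before the RefSeq start of 4 of them, read 5′ to 3′ on the strand of the gene, with capitals marking a GC box, the letters GGGCGG or their complement CCGCCC, which the general activator Sp1 is known to bind. The stretches are Cybb chrX:9469325-9469424, Cyba chr8:122432941-122433040 and Ncf1 chr5:134229626-134229725 on the minus strand, and Sod2 chr17:13007739-13007838 on the plus strand.
Cybb: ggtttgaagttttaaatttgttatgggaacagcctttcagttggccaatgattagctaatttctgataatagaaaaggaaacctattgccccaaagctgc
Cyba: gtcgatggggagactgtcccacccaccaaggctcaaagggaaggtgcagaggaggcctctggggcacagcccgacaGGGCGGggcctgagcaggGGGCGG
Ncf1: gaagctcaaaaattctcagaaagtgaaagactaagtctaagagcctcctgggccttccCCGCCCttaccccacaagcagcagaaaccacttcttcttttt
Sod2: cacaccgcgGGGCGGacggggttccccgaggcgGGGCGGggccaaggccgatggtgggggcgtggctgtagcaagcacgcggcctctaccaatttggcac

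In the whole 300-base window (250 bases before the start and 50 after), the Cybb promoter was 35.3% G or C with 1 CG pair. Over all 32851 promoters the median was 52.7% G or C with 7 CG pairs. The Sod1 window had 34 CG pairs and 66.7% G or C, Sod2 had 21 and 64.3%, Cat 11 and 62.0%, Cyba 9 and 60.7%, and Ncf1 3 and 54.0%. A GC box on either strand was found in the windows of Cyba, Ncf1, Sod1, Sod2 and Cat and not in that of Cybb, and 35.7% of all promoters held it. The AP-1 letters TGANTCA occurred in Cybb alone of the 6, at bases -139 to -133 before its start, and in 7.81% of all promoters. GAGGAA, the core that the myeloid factor PU.1 binds, occurred in Cybb, Sod2 and Cat and in 28.3% of all promoters. In Cybb it lay at bases 9 to 14 after the start on the opposite strand, in Sod2 at -203 to -198 and in Cat at -235 to -230. An antioxidant response element (TGAC and GC with 3 free bases between them) occurred in Sod1 alone, at bases -56 to -48 on the opposite strand, and in 12.4% of all promoters. The hypoxia response core ACGTG, present in 19.6% of all promoters, and the NF-kB letters (GGGA and TTCC with 2 free bases between them), present in 1.47%, were in none of the 6 windows. These matches describe letters in a short window, and motifs with some of their letters in another motif were counted for each. Each window sits at a single RefSeq start. Those of Cybb and Sod2 lie inside the gene spans given above, so sequence at starts further upstream was not examined.

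Of the genes of the membrane core, Cybb differed between the media and Cyba was not called between them. Cybb was 2.95-fold higher in CO-CM than in UNX, and its level in PH-CM was 0.340 times that in CO-CM. Its level was 217, 263 and 267 CPM in the UNX libraries (replicates 1, 2 and 3), 660, 830 and 716 CPM in CO-CM, and 196, 279 and 276 CPM in PH-CM. The CO-CM libraries were all above every other library, and the UNX and PH-CM ranges overlapped. The log2 fold change was 1.56 for CO-CM against UNX (SE 0.141, FDR = 4.14e-06) and -1.55 for PH-CM against CO-CM (SE 0.141, FDR = 1.83e-05). Among all tested genes, 98.0% had a lower log2 fold change than Cybb in the first comparison and 0.820% in the second. For PH-CM against UNX the difference was 0.01 (FDR = 0.961) with a 95% confidence interval of -0.30 to 0.32. Differences within that interval remain compatible with this fit.

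Within each replicate number, Cybb in CO-CM was 3.04, 3.16 and 2.68 times its UNX level and in PH-CM 0.296, 0.336 and 0.386 times its CO-CM level, so that the difference was present in each repeat. PH-CM against UNX gave ratios of 0.90, 1.06 and 1.04. The 3 tested genes of the neutrophil list also differed between groups. Csf3r, the receptor for granulocyte colony-stimulating factor, had a log2 fold change of 3.16 for CO-CM against UNX, 2.18 for PH-CM against UNX and -0.99 for PH-CM against CO-CM, so it resembled Cybb in the comparisons with CO-CM and not in PH-CM against UNX. Mmp8, a secreted collagenase, had 1.41, 2.34 and 0.93 in the same order, and S100a8, a calcium-binding protein, 1.39, 1.37 and -0.02. S100a8 had only 62, 68 and 86 reads in the UNX libraries, near 1 CPM. It would not have passed the filter on these libraries alone. Of the other 9 genes of that list, Ly6g was at 0 in every library and S100a9 had the most reads in any library, 82. Ltf and Ngp, also below the filter, did not follow the 3 tested genes. Ltf had 14 to 46 reads in UNX, 8 to 42 in CO-CM and 6 in each PH-CM library. Ngp had 28 to 69, 20 to 56 and 8 to 22 reads in the same order. The part of neutrophils in the Cybb result was not tested.

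Cyba, whose product holds the catalytic chain in the membrane and binds the organizer subunit, was higher than UNX in both media. It stood at 400, 473 and 459 CPM in UNX, 677, 764 and 742 in CO-CM and 580, 635 and 648 in PH-CM, and none of the groups overlapped. Relative to UNX it rose by 0.71 on the log2 scale in CO-CM (SE 0.0753, FDR = 1.30e-05) and 0.48 in PH-CM (SE 0.0752, FDR = 0.000168). PH-CM was 0.23 below CO-CM on the log2 scale (FDR = 0.0355), a fold change under 1.2 and therefore not called. It was called without CO-CM replicate 1 (-0.28, FDR = 0.0185).

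Because Cybb and Cyba encode subunits of a single complex, their ratio was taken within each library from RPKM. The Cyba to Cybb ratio was 10.3, 10.1 and 9.63 in UNX, 5.73, 5.14 and 5.80 in CO-CM and 16.6, 12.7 and 13.1 in PH-CM, so no group overlapped another. On the log2 scale CO-CM was 0.85 below UNX and PH-CM was 0.49 above it, and PH-CM exceeded CO-CM by 1.34. Each of these differences had an exact two-sided permutation p of 0.1, which is the smallest p that 3 against 3 libraries can give.

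**Figure D1:**
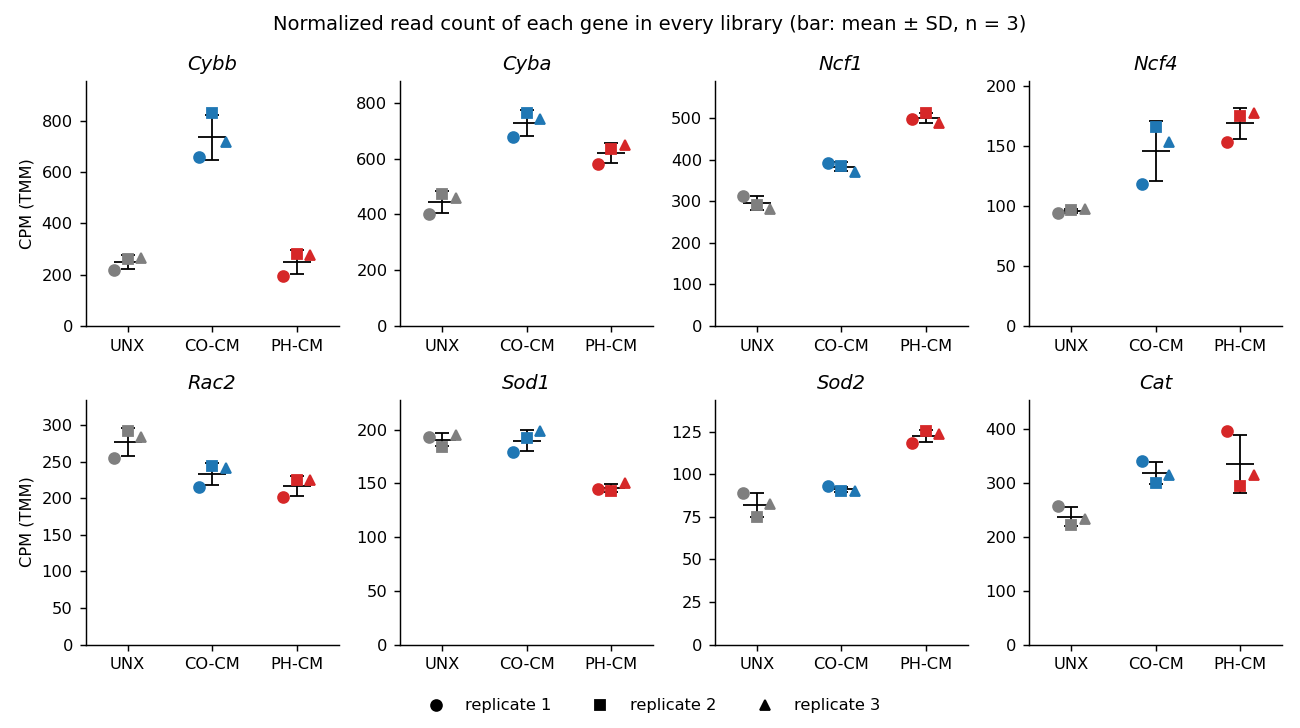
Level of each of the 8 genes in every library, in CPM on linear axes that start at 0, by group. Points are libraries, with the shape giving the replicate number, and bars give the mean ± SD of 3 libraries. Cybb stands at 660 to 830 CPM in CO-CM and at 196 to 279 CPM in the other libraries, whereas Ncf1 rises from UNX to CO-CM to PH-CM.

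The cytosolic subunits were higher in both conditioned media, with the larger estimates in PH-CM. Ncf1 encodes the organizer that bridges the membrane core and the other cytosolic subunits. It stood at 314, 291 and 281 CPM in UNX, 392, 386 and 371 in CO-CM and 499, 513 and 489 in PH-CM. The groups were fully separate and each spanned a narrow range. Its log2 fold change was 0.38 in CO-CM (SE 0.0510, FDR = 7.64e-05), 0.76 in PH-CM (SE 0.0512, FDR = 3.19e-07) and 0.38 between PH-CM and CO-CM (SE 0.0509, FDR = 0.000219).

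Ncf4, whose product binds a phosphoinositide of the phagosome membrane, had 93.8, 96.7 and 97.2 CPM in UNX, 118, 166 and 153 in CO-CM and 154, 175 and 178 in PH-CM. Both conditioned media were above UNX, by 0.60 (FDR = 0.000506) and 0.82 (FDR = 4.90e-05) on the log2 scale, and their own ranges overlapped. PH-CM against CO-CM was 0.21 with a 95% confidence interval of -0.02 to 0.45 (FDR = 0.143). That difference was called only when CO-CM replicate 2, the highest CO-CM library, was left out (0.31, FDR = 0.0455). Within the replicate numbers, Ncf4 in PH-CM was 1.30, 1.06 and 1.16 times its CO-CM level. Its lowest FDR among the alternative settings was 0.0167, with a fold change under 1.2.

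Rac2, the Rac GTPase typical of blood cells, was lower in PH-CM than in UNX. It had 256, 291 and 284 CPM in UNX, 216, 243 and 241 in CO-CM and 201, 225 and 225 in PH-CM. Neither conditioned medium overlapped UNX. It differed from UNX by -0.35 on the log2 scale in PH-CM (SE 0.0696, FDR = 0.000958) and -0.25 in CO-CM (SE 0.0695, FDR = 0.00891), the second under the fold threshold and not called. Leaving out UNX replicate 1 (-0.32), CO-CM replicate 2 (-0.28) or CO-CM replicate 3 (-0.27) carried the CO-CM difference past that threshold. PH-CM against CO-CM was -0.10 (FDR = 0.275, interval -0.26 to 0.05) in this fit, which does not pair the libraries. Within the replicate numbers, Rac2 in PH-CM was 0.933, 0.923 and 0.937 times its CO-CM level. Its lowest FDR among the alternative settings was 0.0137, and the fold change was under 1.2 in all of them.

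**Figure D2:**
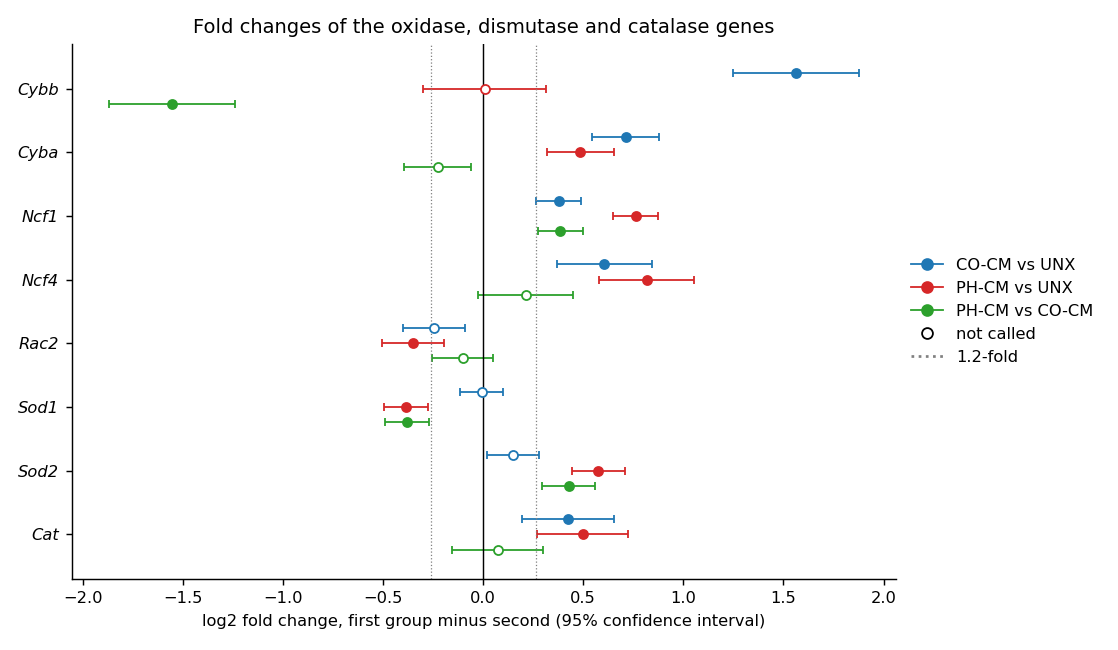
The log2 fold change of each gene in the 3 comparisons (x axis), with points for the estimate, bars for the 95% confidence interval, filled points for called genes and dotted lines at a fold change of 1.2. Cybb stands at 1.56 and -1.55 in the comparisons with CO-CM and at 0.01 in PH-CM against UNX, and every other estimate lies within 1 of zero.

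Per exon length, Cyba was by far the most abundant of the 5 oxidase genes, with 439 ± 32.7 RPKM in UNX, 686 ± 30.0 in CO-CM and 591 ± 26.6 in PH-CM (SD, n = 3). The summed RPKM of Cybb, Cyba, Ncf1, Ncf4 and Rac2 was 709 ± 37.0 in UNX, 1058 ± 51.8 in CO-CM and 921 ± 40.7 in PH-CM. Cybb took 6.21% ± 0.324 of that sum in UNX, 11.7% ± 0.678 in CO-CM and 4.60% ± 0.634 in PH-CM. The share of Ncf1 was 11.7% ± 1.44 in UNX, 9.72% ± 0.847 in CO-CM and 14.7% ± 0.923 in PH-CM. That of Rac2 was 13.2% ± 0.0368 in UNX, 7.11% ± 0.124 in CO-CM and 7.67% ± 0.0474 in PH-CM. The share of Ncf4 was 6.90% ± 0.336 in UNX, 6.65% ± 0.710 in CO-CM and 8.95% ± 0.196 in PH-CM. Cyba made up 60.3% to 65.3% of the sum in every library. For Cybb, Ncf1 and Rac2 no library of a group overlapped another group, and for Ncf4 the PH-CM libraries lay above the rest. A share falls when other genes of the sum rise, so these values describe composition and not level.

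**Figure D3:**
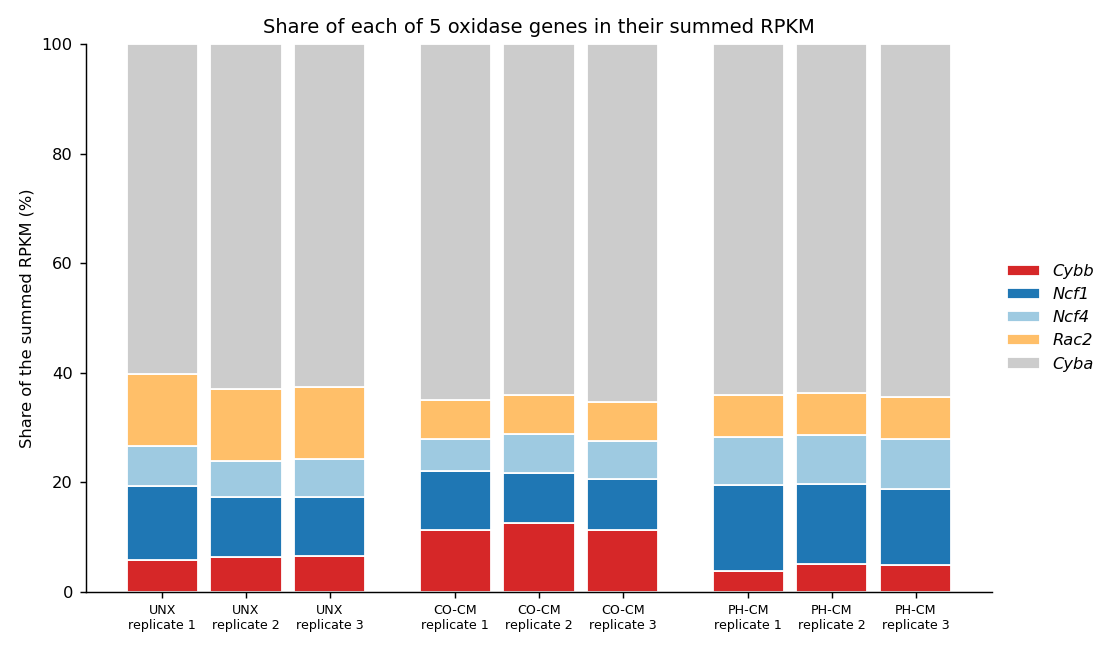
Share of each of 5 oxidase genes in their summed RPKM (y axis, percent, stacked to 100) in each of the 9 libraries. The Cybb share is 11.3% to 12.5% in CO-CM, 5.86% to 6.50% in UNX and 3.87% to 5.01% in PH-CM.

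Among the 8 genes ordered by RPKM, Cyba was first, Sod1 second and Sod2 last in each group. In UNX, Rac2 (93.7 ± 5.14), Cat (93.7 ± 8.08) and Ncf1 (82.9 ± 5.84) followed Sod1 with overlapping ranges between neighbours, and then came Ncf4 (48.8 ± 0.248) and Cybb (44.0 ± 4.28). In CO-CM, Cybb followed Sod1 with 124 ± 12.5 RPKM, overlapping Cat (120 ± 10.2), and the ranges of Rac2 (75.2 ± 3.54) and Ncf4 (70.5 ± 10.7) overlapped as well. In PH-CM, Ncf1 followed Sod1 with 135 ± 3.30 and overlapped Cat (127 ± 22.3), and Cybb was again just above Sod2 with 42.5 ± 7.53. The exon length behind the deposited RPKM was 646 bases for Sod1 and 3824 for Sod2, whereas the annotation used here gives 3970 and 10008 bases, so the places of these 2 genes depend on the gene model. The comparisons of a gene between groups do not.

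The dismutases moved in opposite directions in PH-CM. Sod1 had 193, 184 and 195 CPM in UNX, 179, 192 and 198 in CO-CM and 145, 143 and 150 in PH-CM. All PH-CM libraries lay below the others, while UNX and CO-CM overlapped. Its log2 fold change was -0.39 for PH-CM against UNX (SE 0.0493, FDR = 3.97e-05) and -0.38 for PH-CM against CO-CM (SE 0.0493, FDR = 0.000199). For CO-CM against UNX it was -0.01 (FDR = 0.894), with a 95% confidence interval of -0.12 to 0.10.

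Sod2 had 89.0, 74.9 and 82.6 CPM in UNX, 92.9, 90.4 and 89.9 in CO-CM and 118, 125 and 124 in PH-CM. The PH-CM libraries were above all others, and CO-CM was above UNX by a narrow margin. PH-CM exceeded UNX by 0.58 (SE 0.0594, FDR = 8.07e-06) and CO-CM by 0.43 (SE 0.0593, FDR = 0.000304) on the log2 scale. CO-CM against UNX was 0.15 (FDR = 0.0443), under the fold threshold.

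The Sod2 to Sod1 ratio of RPKM was 0.0777, 0.0689 and 0.0715 in UNX, 0.0877, 0.0796 and 0.0766 in CO-CM and 0.138, 0.148 and 0.139 in PH-CM. Each PH-CM library was thus above every library of the other groups, while UNX and CO-CM overlapped. On the log2 scale the difference was 0.97 for PH-CM against UNX and 0.80 for PH-CM against CO-CM (exact two-sided permutation p = 0.1 for both, the smallest possible), and 0.16 for CO-CM against UNX (exact permutation p = 0.2).

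**Figure D4:**
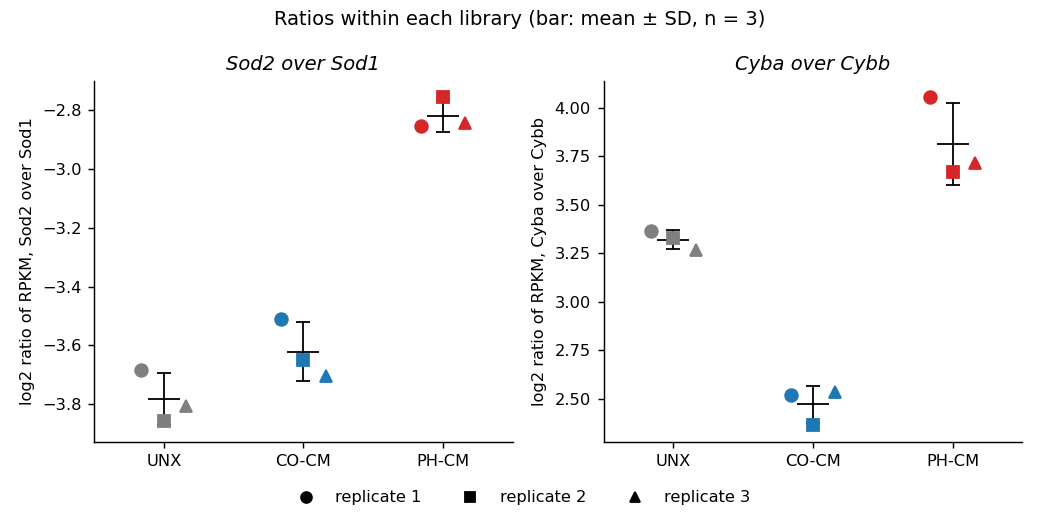
Ratio of Sod2 to Sod1 (left) and of Cyba to Cybb (right) within each library, as log2 of the ratio of RPKM, with axes that do not start at 0. Points are libraries and bars the mean ± SD of 3. PH-CM is above the other groups in both panels, and CO-CM is below UNX only in the right panel.

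Cat was higher in both conditioned media. It had 257, 223 and 234 CPM in UNX, 342, 301 and 315 in CO-CM and 396, 294 and 316 in PH-CM. Neither conditioned medium overlapped UNX, and the PH-CM libraries spanned the widest range, with replicate 1 above the rest. Relative to UNX it rose by 0.50 on the log2 scale in PH-CM (SE 0.103, FDR = 0.00127) and 0.42 in CO-CM (SE 0.103, FDR = 0.00384). PH-CM against CO-CM was 0.07 (FDR = 0.622, interval -0.16 to 0.30).

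Counted together, 7 of the 8 genes were called in PH-CM against UNX, beside 63.0% of all tested genes. Of these 5 were higher, beside 31.3% of all genes, and 2 lower, beside 31.7%. In CO-CM against UNX 5 were called, beside 57.0% of all genes. All 5 were higher, beside 28.0% of all genes, and none was lower, beside 28.9%. In PH-CM against CO-CM 4 were called, beside 27.1% of all genes. Ncf1 and Sod2 were higher, beside 12.2% of all genes, and Cybb and Sod1 lower, beside 15.0%. The libraries of the groups did not overlap for 7, 7 and 5 of the 8 genes in these comparisons, beside 77.7%, 72.0% and 50.2% of all genes. The median log2 fold change of the 8 genes was 0.49, 0.40 and -0.02 in these comparisons, and that of all tested genes was 0.00719, 0.00024 and -0.0064. With so large a share of all genes called, the counts alone do not set the 8 genes apart. The comparisons share libraries, UNX in those with UNX and the conditioned media in the comparison between them, and are not independent of each other.

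The replicates carried a common pattern. Cybb, Cyba, Ncf4 and Rac2 were lowest in the library numbered 1 in all 3 groups, and Cat was highest there. With the libraries numbered 1 left out, a choice made after seeing the data, the called genes among the 8 were again 7, 5 and 4 in the 3 comparisons. Cybb then had a log2 fold change of 1.54 in CO-CM and -1.47 in PH-CM against CO-CM, and Cat 0.42 in CO-CM and 0.41 in PH-CM against UNX.

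Partners and regulators of the oxidase were taken from a list of 27 genes, of which 21 passed the filter. In PH-CM against UNX 5 were higher and 9 lower, where 31.3% and 31.7% of all genes were. In CO-CM against UNX 5 were higher and 8 lower, beside 28.0% and 28.9% of all genes, and in PH-CM against CO-CM 1 was higher and 1 lower, beside 12.2% and 15.0%. The median log2 fold change of the 21 was -0.20, -0.25 and -0.02. The other catalytic chains Nox1, Nox3, Nox4, Duox1 and Duox2, and Noxa1, a subunit of another oxidase, did not pass the filter, with no more than 0.239 CPM in any library. Cybb was thus the only NADPH oxidase catalytic chain tested.

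Cybc1, the chaperone that the membrane core needs for its assembly, was not called in any comparison (0.14, -0.07 and 0.20 on the log2 scale), apart from PH-CM against CO-CM without CO-CM replicate 2 (0.28). Rac1, the widely expressed relative of Rac2, was lower in PH-CM than in UNX (-0.30, FDR = 0.000383) and did not pass the fold threshold in CO-CM (-0.25, FDR = 0.00187), which it did without UNX replicate 1 (-0.29) or CO-CM replicate 2 (-0.26).

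Hvcn1, the voltage-gated proton channel that balances the charge moved by the oxidase, was the only gene of the list called in all 3 comparisons, and its level was highest in CO-CM. It had 20.1, 22.6 and 24.3 CPM in UNX, 57.4, 51.6 and 54.5 in CO-CM and 37.8, 33.0 and 36.2 in PH-CM. The groups did not overlap, and the log2 fold change was 1.29 in CO-CM (FDR = 2.59e-07), 0.67 in PH-CM (FDR = 2.10e-05) and -0.61 between PH-CM and CO-CM (FDR = 0.000173). Vav3, an exchange factor that loads Rac with GTP, went the other way. It had 106 to 109 CPM in UNX, 56.0 to 67.5 in CO-CM and 102 to 107 in PH-CM, and it fell by 0.84 on the log2 scale in CO-CM (FDR = 1.37e-06). PH-CM exceeded CO-CM by 0.80 (FDR = 8.46e-06) and was not distinguished from UNX (-0.03, FDR = 0.650). Vav1, of the same family and at a mean of 177 CPM in UNX, was not called in any comparison. Its log2 fold change was -0.04 in PH-CM, 0.07 in CO-CM and -0.11 between PH-CM and CO-CM. Prex1, another Rac exchange factor, was higher in both media, by 0.97 in PH-CM (FDR = 1.71e-07) and 0.73 in CO-CM (FDR = 2.06e-06). PH-CM against CO-CM was 0.25 for Prex1 and was called without CO-CM replicate 1 (0.27), CO-CM replicate 2 (0.28) or PH-CM replicate 3 (0.27).

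Among the kinases and lipid enzymes that activate the complex, Prkcd, a protein kinase C that phosphorylates the organizer, was higher by 0.67 in PH-CM (FDR = 1.21e-06) and 0.60 in CO-CM (FDR = 3.63e-06). The other listed protein kinase C genes were lower in PH-CM, at -0.39 for Prkcb (FDR = 1.51e-05) and -0.30 for Prkca (FDR = 0.0235). In CO-CM Prkcb was at -0.25 (FDR = 0.000467), under the fold threshold, except without UNX replicate 1 (-0.27), UNX replicate 2 (-0.28) or CO-CM replicate 2 (-0.26), and Prkca at -0.26 (FDR = 0.0417), just past it. The Prkca call in CO-CM was lost with a replicate block (-0.26, FDR = 0.0325), edgeR's exact test, DESeq2, DESeq2 size factors and upper-quartile factors. Fitting only the 2 groups compared or dividing the counts by 2 also removed it. The same held when replicate 1 or 2 of UNX (-0.23 and -0.30) or 2 or 3 of CO-CM (-0.25 and -0.24) was left out. Leaving out replicate 2 or 3 of PH-CM (-0.26 for both) removed it as well. Its call in PH-CM was lost without replicate 1 of UNX (-0.26) and without either replicate 1 (-0.26) or 2 (-0.23) of PH-CM. Pla2g4a, the cytosolic phospholipase that releases arachidonic acid, had the largest fall on the list. Its mean was 49.2 CPM in UNX, 8.81 in CO-CM and 8.02 in PH-CM, and no conditioned medium library overlapped UNX. It changed by -2.62 in PH-CM (FDR = 6.25e-08) and -2.48 in CO-CM (FDR = 1.30e-07). Pik3cg, a phosphoinositide 3-kinase of leukocytes, fell by 0.85 in PH-CM (FDR = 3.94e-07) and by 0.87 in CO-CM (FDR = 5.24e-07), and Pak1, a kinase activated by Rac, fell by 0.63 (FDR = 1.59e-06) and by 0.57 (FDR = 4.25e-06). Pak2, a relative of Pak1 at a mean of 250 CPM in UNX, was not called in PH-CM (-0.08) or between the media (0.18). In CO-CM Pak2 was at -0.26 (FDR = 0.0015), under the fold threshold. Several alternatives called it there, such as those without UNX replicate 2 (-0.29) or CO-CM replicate 1 (-0.30). Arhgdia and Arhgdib, whose products keep Rac in the cytosol, were lower in PH-CM (-0.49, FDR = 7.58e-06, and -0.41, FDR = 4.30e-05). In CO-CM Arhgdib was called lower too (-0.28, FDR = 0.00075), but not without CO-CM replicate 1 (-0.24) or with upper-quartile factors (-0.22). Arhgdia was at -0.25 there (FDR = 0.00113), under the fold threshold, and was called without UNX replicate 1 (-0.28), UNX replicate 2 (-0.27) or CO-CM replicate 3 (-0.28). Neither was called between the media, apart from Arhgdia without CO-CM replicate 1 (-0.26) or with upper-quartile factors (-0.27). Noxo1, a relative of Ncf1, was called higher in both media (1.59 and 1.61) but from 0.216 to 0.535 CPM in UNX and a mean of 1.04 CPM in CO-CM and 1.03 in PH-CM, and it passed the filter only through libraries of the conditioned media.

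**Figure D5:**
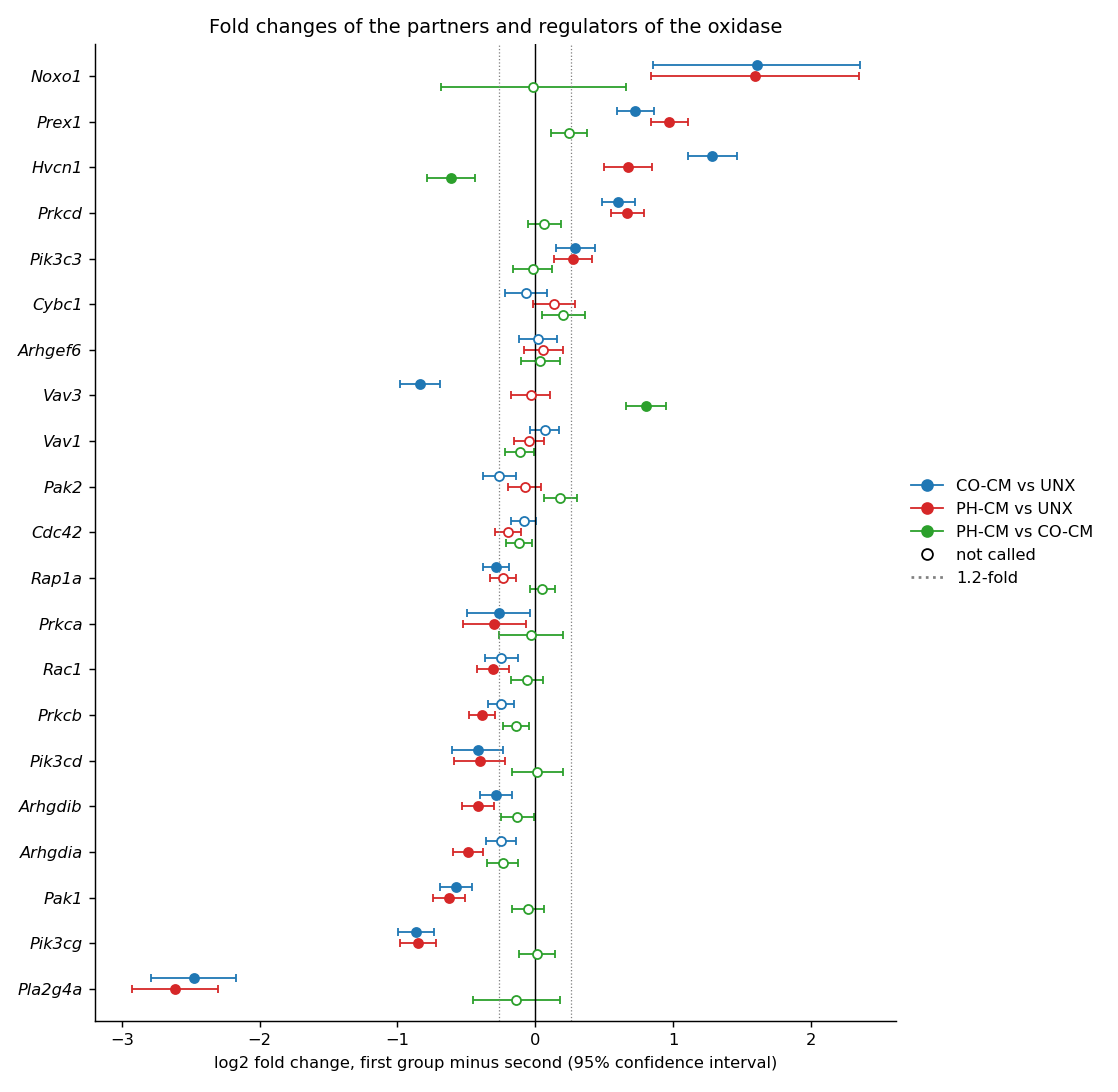
The log2 fold change of the 21 tested partners and regulators of the oxidase in the 3 comparisons (x axis), ordered by PH-CM against UNX, with 95% confidence intervals, filled points for called genes and dotted lines at a fold change of 1.2. Hvcn1 is called in all 3 and is highest in CO-CM, and Vav3 is lower only in CO-CM against UNX.

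Hydrogen peroxide is removed by peroxiredoxins and glutathione peroxidases as well as by catalase. The list of 21 genes described here is mostly of this step. It also holds others, such as the dismutase Sod3, whose product forms hydrogen peroxide. Of the 21 genes, 20 passed the filter. A gene counted below as higher in both media passed it only through libraries of the conditioned media. Its mean was 0.616 CPM in UNX, 1.07 in CO-CM and 1.09 in PH-CM. In PH-CM against UNX 7 were higher and 7 lower (31.3% and 31.7% of all genes), in CO-CM against UNX 6 were higher and 3 lower (28.0% and 28.9% of all genes), and in PH-CM against CO-CM 5 were higher and 5 lower (12.2% and 15.0% of all genes), with a median log2 fold change of 0.05, -0.02 and -0.05. The largest rises in PH-CM against UNX were those of Prdx5 (1.38, FDR = 5.95e-08), a peroxiredoxin of mitochondria and peroxisomes, and Gpx3 (1.05, FDR = 7.13e-06), a secreted glutathione peroxidase. Gpx3 (1.49, FDR = 7.63e-07) and Prdx5 (0.79, FDR = 4.63e-06) also led in CO-CM. The largest falls were those of Glrx, a glutaredoxin (-1.35, FDR = 4.47e-06 in PH-CM and -1.15, FDR = 1.76e-05 in CO-CM), and of the thioredoxin reductase Txnrd1 (-0.60, FDR = 0.00574 and -0.85, FDR = 0.000747). Between the media, Sod3, the extracellular dismutase (2.29-fold, FDR = 0.00900, at 2.88 CPM in PH-CM), and Prdx6 (0.70, FDR = 5.30e-06) had the largest rises in PH-CM, and Prdx4 (-0.49, FDR = 0.000543) and Gpx3 (-0.44, FDR = 0.00726) the largest falls.

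For each of the 8 genes, the tested genes with the nearest profile over the 9 libraries were found by the root mean square difference of centred log2 CPM. Nearest to Cybb were Oit3 (0.152) and Ctse (0.163), where Cybb itself varied by 0.758 about its mean. Nearest to Cyba were Dram2 (0.0348) and Ctsa (0.0381), beside a spread of 0.310. Ncf1 had Ugt1a7c (0.0358) and Gab2 (0.0384) beside a spread of 0.315, and Ncf4 had Nbdy (0.0674) and Sestd1 (0.0728) beside 0.368. Rac2 had Cyth4 (0.0451) and Trmt2b (0.0453) beside 0.166, and Sod1 had Actr3 (0.0330) and Rplp1 (0.0357) beside 0.186. Sod2 had Fbxo42 (0.0570) and Synj1 (0.0615) beside 0.253, and Cat had Zfp418 (0.0592) and Ikbkg (0.0670) beside 0.250. None of the 8 genes was among the nearest genes of another. The distance to the nearest gene was greatest for Cybb, which also had the widest spread.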

How the data were processed

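RNA-Seq libraries (paired reads) were made from 9 BMDM cultures, grouped and numbered from their labels. Per the labels and methods, the authors used AfterQC for trimming, STAR 2.6.0c for alignment (GRCm38, Ensembl 91) and featureCounts 1.6.2 for counting on exons, and deposited the counts per gene as whole numbers, not normalized. The authors also deposited RPKM, these counts scaled to exon length and library total. Their tables of comparisons (log2 fold changes, mean log2 CPM, p-values and FDR from edgeR's exact test) were not used. Gene coordinates are from GENCODE M21 (GRCm38).

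Genes above 1 CPM in at least 3 libraries (11950 of 53465) were kept, scaled by TMM and fitted over all 9 libraries with edgeR 4.0.16 (glmQLFit and glmQLFTest, R 4.3.3), with Benjamini-Hochberg adjustment over all of them, after the script was tested on simulated data. RPKM ratios were compared by exact permutation tests. DESeq2 1.42.0, other scalings, filters and thresholds, single libraries left out and a replicate block were tried as alternatives. Deviations from the group means correlated between same-numbered libraries of different groups (r 0.276 to 0.484 in 9 pairs), so the numbers pair the libraries. Nothing says that the cultures came from separate mice, so p-values measure the spread between these cultures.

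The genes, lists and tests were chosen with earlier results of these data known. The text names all 8 genes, some of the tested oxidase partners (the rule allowed any), the 2 called genes with the largest rise and the 2 with the largest fall of each other list, and the 2 nearest profiles of each gene. Neutrophil-list genes were named after their values were seen. A further gene chosen for the partner list was taken off it and is not reported here.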

Additional observations from a re-analysis of the deposited data

How the results depend on the processing

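Over 22 alternatives for each of the 8 genes in each of 3 comparisons, 502 of 528 values kept their side of the thresholds and no called gene changed direction. A fold threshold of 2 accounted for all 14 values no longer called. Of 12 newly called values, Rac2 in CO-CM against UNX was called with library size alone, without a low-count filter and with filterByExpr, and Cyba in PH-CM against CO-CM with upper-quartile factors. With the replicate block the 8 genes gave 7, 5 and 4 calls in PH-CM against UNX, CO-CM against UNX and PH-CM against CO-CM, and of the named genes only Prkca changed, which in CO-CM against UNX lost its call with the block (-0.26, FDR = 0.0325).

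A fold threshold of 2 left 0, 1 and 1 of the 8 genes, 2, 3 and 0 oxidase partners, 3, 2 and 1 peroxide genes, 3, 3 and 0 NADPH genes, 1, 2 and 1 peroxisome genes, and 2153, 1655 and 612 of all tested genes, in these comparisons. Without a fold threshold, PH-CM against CO-CM gave 7 oxidase partners, 7 NADPH genes and 5 peroxisome genes. Leaving out single libraries gave 2 to 4 oxidase partners in PH-CM against CO-CM, with 4 both without CO-CM replicate 1 and without CO-CM replicate 2. A low-value filter does not apply to the RPKM ratios and was not run for them. With 3 libraries a group, exact permutation tests of the ratios cannot pass 0.05.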

Other observations

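The oxidase draws on NADPH, and peroxisomes hold most catalase, so 2 further lists of genes were described. The list of 14 genes around NADPH supply spans several compartments, and not every gene on it makes NADPH. Whether their changes bear on the NADPH that the oxidase uses was not tested. All 14 genes passed the filter. In PH-CM against UNX 5 were higher and 6 lower (31.3% and 31.7% of all genes), in CO-CM against UNX 4 were higher and 5 lower (28.0% and 28.9% of all genes), and in PH-CM against CO-CM 1 was higher and 3 lower (12.2% and 15.0% of all genes), with a median log2 fold change of -0.20, 0.02 and -0.09. Idh1, the isocitrate dehydrogenase of cytosol and peroxisomes, was at 174 CPM in UNX, 368 in CO-CM and 366 in PH-CM (log2 fold change 1.08, FDR = 2.24e-05, and 1.07, FDR = 1.84e-05). Taldo1, the transaldolase of the pentose phosphate pathway, was higher in PH-CM than in UNX (0.85, FDR = 2.06e-07) and than in CO-CM (0.32, FDR = 0.00101), and H6pd, an enzyme that makes NADPH in the endoplasmic reticulum, was higher in CO-CM than in UNX (0.70, FDR = 2.60e-06). Mthfd2, of mitochondrial folate metabolism, was at 111 CPM in UNX, 29.2 in CO-CM and 15.2 in PH-CM, and was lower in PH-CM than in UNX (-2.87, FDR = 6.15e-07) and than in CO-CM (-0.94, FDR = 0.00466), and lower in CO-CM than in UNX (-1.93, FDR = 1.15e-05). Idh2, a mitochondrial isocitrate dehydrogenase, was lower in PH-CM than in UNX (-1.10, FDR = 2.67e-08) and than in CO-CM (-0.41, FDR = 0.000171), and Me2, a mitochondrial malic enzyme, was lower in CO-CM than in UNX (-1.04, FDR = 6.85e-08).

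Of 33 peroxisome genes 32 passed the filter, with 13 higher and 2 lower in PH-CM against UNX, 11 higher and 2 lower in CO-CM against UNX, and 1 higher and 2 lower in PH-CM against CO-CM, beside the same shares of all genes as above. The median log2 fold change was 0.18, 0.18 and 0.03. Acox3, which oxidizes branched-chain acyl-CoA, was higher in PH-CM (1.44, FDR = 1.41e-07) and in CO-CM (1.52, FDR = 1.47e-07). Abcd2, a transporter of very long-chain fatty acids into peroxisomes, was at 8.15 CPM in UNX, 47.6 in CO-CM and 15.2 in PH-CM, and so was highest in CO-CM, as Cybb was. Its log2 fold change was 2.54 in CO-CM (FDR = 8.27e-08), 0.89 in PH-CM (FDR = 0.000114) and -1.65 between PH-CM and CO-CM (FDR = 6.14e-06). Pex11a, a factor of peroxisome division, was lower in PH-CM than in CO-CM (-0.65, FDR = 0.000689), and Pex5, the receptor that imports catalase among other proteins, was higher (0.46, FDR = 7.07e-05). Agps and Far1, enzymes of ether lipid synthesis, were lower in both media (Agps -0.35, FDR = 0.000184 in PH-CM and -0.41, FDR = 7.03e-05 in CO-CM, Far1 -0.33, FDR = 9.97e-06 and -0.40, FDR = 3.72e-06).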
